A study of Arabidopsis thaliana with 128 samples.

Results

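Plants keep transposons and other repeats silent with DNA methylation and with histone marks, and the 10 genes described here encode factors of the histone and heterochromatin side of that system. They were chosen by name and identifier, not by their values, although earlier results of these data were known: *MOM1* (AT1G08060), *SUVH4* (AT5G13960), *SUVH5* (AT2G35160), *SUVH6* (AT2G22740), *ATXR5* (AT5G09790), *ATXR6* (AT5G24330), *HDA6* (AT5G63110), *IBM1* (AT3G07610), *FAS1* (AT1G65470) and *FAS2* (AT5G64630). All 10 were found in the table of mRNA levels, among 29417 nuclear genes. *SUVH4*, *SUVH5* and *SUVH6* methylate lysine 9 of histone H3, a mark that the DNA methyltransferase *CMT3* reads, and SUVH enzymes in turn bind methylated DNA, so that both marks maintain each other. *IBM1* is a demethylase that keeps this histone mark off the bodies of active genes. *ATXR5* and *ATXR6* add a single methyl group to lysine 27 of histone H3 as chromatin is replicated. *HDA6* removes acetyl groups from histones at transposons and ribosomal RNA gene repeats, *MOM1* silences repeats without large changes of DNA methylation, and *FAS1* and *FAS2* are the large subunits of CAF-1, the chaperone that loads new histones H3 and H4 behind the replication fork.

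The study asked how heat acts on Arabidopsis thaliana (Col-0) stem cells and on other tissue, and whether silencing mutants differ. Seedlings grown in vitro were kept at 37 °C for 1 day (H) or at 21 °C (C), and material was taken at 7 d, directly after the heat, or at 28 d. All plants, controls included, carried a histone reporter (H2BmCherry) driven by the *CLV3* promoter, which marks shoot stem cells, in 3 backgrounds. *poliv* carries *nrpda-3*, an insertion in the gene for the largest subunit of RNA polymerase IV, which makes the precursors of small RNAs that guide DNA methylation. *ddm1* carries *ddm1-10*, an insertion in the gene for a chromatin remodeler that lets DNA methyltransferases into heterochromatin, and wt has the reporter alone. Libraries came from sorted stem cell nuclei at 7 d (HS7 and CS7, n = 8 per genotype and treatment), nonstem nuclei at 7 d (HN7 and CN7, wt only, n = 6 each), above-ground seedling tissue at 7 d (HT7 and CT7), stem cell nuclei at 28 d (HS28 and CS28) and inflorescence apices at 28 d (HI28 and CI28). The T7, S28 and I28 groups had 4 libraries each, except *poliv* CT7, *ddm1* HS28, *ddm1* HI28 and wt CI28 with 3 each. Each library of nuclei was a small bulk of sorted nuclei, and nothing in the sources says that replicates came from separate plants or sorts, so that a p-value covers the spread of the libraries at hand, which may be technical. Values are counts normalized by the authors with DESeq2 size factors, given here as normalized counts.

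Recovered read totals ranged from 1853992 to 5813317 in S7, from 3401349 to 5253212 in N7, from 8614232 to 17611137 in T7, from 2615204 to 6999950 in S28 and from 7456669 to 15016702 in I28 libraries. Heat shock genes checked the treatment labels: their summed level in stem cell nuclei averaged 7120 in wt HS7 and 120 in wt CS7 libraries. *DDM1* was lower in *ddm1* tissue, with a median of 3.32 in *ddm1* and 51.9 in wt I28 libraries, but not in *ddm1* nuclei, with medians of 87.1 in *ddm1* and 32.3 in wt S28 libraries. The share of reads on TEs was 18.7% to 31.5% in *ddm1* S28 and 19.3% to 29.3% in *ddm1* S7, against 1.11% to 3.18% in wt S28 and 1.08% to 5.61% in wt S7 libraries. *NRPD1*, the gene hit in *poliv*, had medians of 90.5 in *poliv* and 97.2 in wt S7 libraries, and a count over a whole gene does not check an insertion in it. One set of libraries stood apart in the summed level of 5 genes called stem cell markers here (*CLV3*, *AGO5*, *AGO9*, *WUS* and *STM*). Of these, the paper names *CLV3*, *AGO5* and *AGO9* as enriched in stem cells. The sum lay between 21.8 and 98.6 in *ddm1* CS7 libraries. It lay between 235 and 558 in wt CS7 and between 261 and 710 in *poliv* CS7 libraries, and between 15.4 and 27.7 in wt CN7, the nonstem nuclei. *WUS* was listed at 0 in all 8 *ddm1* CS7 libraries but had reads in wt CN7, so that its 0 does not tell stem from nonstem nuclei. Leaf photosynthetic genes moved the other way, with a mean sum of 69110 in *ddm1* CS7, against 34696 in wt CS7 and 55968 in wt CN7 libraries. The mCherry reporter used for sorting averaged 8.28 ± 7.77 in *ddm1* CS7, 17.0 ± 16.8 in *poliv* CS7 and 31.9 ± 29.7 in wt CS7, against 0.416 ± 1.02 in wt CN7 (SD). It averaged 7.03 ± 5.08 in wt CS28 stem cell nuclei, so that reporter counts do not set *ddm1* CS7 apart from other stem cell nuclei. In every result that rests on *ddm1* CS7, including *ddm1* HS7 against CS7 and the difference of heat effects between *ddm1* and wt S7 nuclei, the genotype or the heat cannot be told apart from this shift of markers, and the comparison with wt was also run against wt CN7.

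In TAIR10.1 the genes lie at chr1:2501704-2511084 (*MOM1*, minus strand), chr5:4501362-4506250 (*SUVH4*, plus), chr2:14822774-14826194 (*SUVH5*, plus), chr2:9662638-9667038 (*SUVH6*, minus), chr5:3038978-3041206 (*ATXR5*, minus), chr5:8295110-8297159 (*ATXR6*, minus), chr5:25315506-25318347 (*HDA6*, minus), chr3:2425884-2433113 (*IBM1*, plus), chr1:24319396-24324091 (*FAS1*, minus) and chr5:25833165-25836400 (*FAS2*, plus). *SUVH6* overlaps the protein-coding gene AT2G22730 on the opposite strand over 1496 bases and a long noncoding RNA over 2487 bases, and the strand setting of the counting is not given in the sources used here, so that reads of *SUVH6* and of these neighbours may not be separated. *SUVH4* overlaps AT5G13970 on the opposite strand over 60 bases, and *HDA6* overlaps AT5G63100 on its own strand over 28 bases. The other 7 genes overlap no annotated gene. *IBM1* makes a long and a short transcript by the choice of a poly(A) site in a long intron, and the whole-gene count does not tell them apart.

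The 250 bases before the annotated start (TAIR10.1, from the RefSeq genome, gene strand, 5′ to 3′) are shown for the 3 genes that passed the test most often after heat: *HDA6*, which was higher, and *SUVH6* and *FAS1*, which were lower. Capitals mark matches to 2 kinds of motif, the heat shock element cores GAANNTTC and TTCNNGAA and the E2F-type sites TTTCCCGC and TTTGGCGC, searched on both strands. E2F factors act on genes of DNA replication, and heat shock factors bind heat shock elements.
*HDA6* (chr5:25318348-25318597, minus strand): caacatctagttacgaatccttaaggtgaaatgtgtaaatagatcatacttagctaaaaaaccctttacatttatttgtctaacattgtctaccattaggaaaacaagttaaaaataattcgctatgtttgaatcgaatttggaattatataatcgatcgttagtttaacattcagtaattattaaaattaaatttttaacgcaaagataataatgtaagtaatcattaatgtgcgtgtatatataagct
*SUVH6* (chr2:9667039-9667288, minus strand): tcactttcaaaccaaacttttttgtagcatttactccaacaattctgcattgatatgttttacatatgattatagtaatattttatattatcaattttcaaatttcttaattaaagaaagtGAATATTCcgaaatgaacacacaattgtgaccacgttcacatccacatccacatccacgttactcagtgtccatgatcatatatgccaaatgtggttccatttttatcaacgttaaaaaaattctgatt
*FAS1* (chr1:24324092-24324341, minus strand): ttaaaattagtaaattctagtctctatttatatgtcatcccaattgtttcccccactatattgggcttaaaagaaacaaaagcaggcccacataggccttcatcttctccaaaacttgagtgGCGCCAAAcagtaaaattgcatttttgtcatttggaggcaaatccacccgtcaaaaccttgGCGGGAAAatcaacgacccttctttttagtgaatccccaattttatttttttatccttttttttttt

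*FAS1* held GCGCCAAA at -128 and GCGGGAAA at -67 from the start, both E2F-type sites read on the other strand. An E2F-type site of either kind occurred in 1.21% of 27443 windows from 250 bases before to 50 bases after the starts of annotated genes. *ATXR6* held such a site at 32 bases past the start, and the other 8 genes held neither of these 2 forms in this window. Other forms were not searched or counted over all windows, and *FAS2* held the similar sequence TTTCGCGC shortly before its start. *SUVH6* held the heat shock element core GAATATTC at -129, and *SUVH4*, *SUVH5* and *FAS2* held 1 core each. A heat shock element core occurred in 19.3% of all windows, and *HDA6* held neither motif. These are matches of letters, and no binding was measured.

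The level of the genes per kb of exons differed in order between nuclei and tissue. In wt CS7 libraries *FAS1* (65.3 ± 15.8 normalized counts per kb), *IBM1* (64.8 ± 19.0), *SUVH4* (59.9 ± 10.2) and *MOM1* (54.4 ± 7.17) stood highest and did not differ beyond their spread. *SUVH5* (33.0 ± 9.86) and *SUVH6* (27.9 ± 11.5) followed, and *ATXR5* (19.7 ± 10.7), *FAS2* (17.4 ± 11.3), *HDA6* (12.3 ± 11.1) and *ATXR6* (6.68 ± 6.49) were lowest, each within the spread of its neighbour in this order (SD, n = 8). In wt CT7 tissue *HDA6* was highest at 24.9 ± 1.99 per kb and stood apart from the rest, which lay between 1.96 ± 1.63 for *SUVH5* and 9.04 ± 4.32 for *ATXR5* (SD, n = 4). *HDA6* was also the highest in wt CI28 apices, at 38.0 ± 6.98 per kb (SD, n = 3), followed by *ATXR5* at 17.3 ± 4.77. Nuclei hold nuclear RNA and whole tissue also cytoplasmic RNA, the library types were made separately, and no test was run between them.

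**Figure D1:**
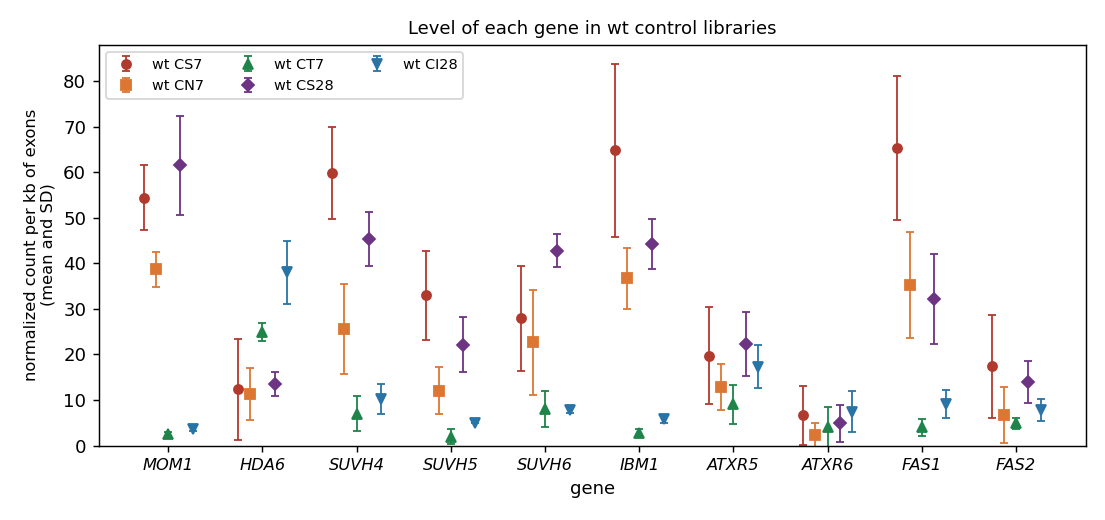
Level of the 10 genes in wt control libraries, as normalized counts per kb of exons, with a point for the mean and a vertical line for the SD in each library type, cut at 0 where the SD reaches below it. *HDA6* is highest in seedling tissue (CT7, 24.9) and apices (CI28, 38.0), while *FAS1*, *IBM1*, *SUVH4* and *MOM1* are highest in CS7 nuclei (54.4 to 65.3).

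Heat at 7 d was the comparison in which most of these genes changed. A gene was called at a Benjamini-Hochberg adjusted p under 0.05 over all features of the limma fit and an absolute log2 fold change above 1, after features whose mean fell under 5 were left out. In nuclei 3 of 10 genes were called in *poliv* HS7 against CS7 (1 up, 2 down; 34.2% of all tested nuclear genes were called), 2 of 10 in *ddm1* (both down; 33.4% of all), 5 of 10 in wt HS7 (1 up, 4 down; 35.1%) and 4 of 10 in wt HN7 against CN7 (2 up, 2 down; 39.3%). In tissue 3 of 9 genes were called in *poliv* HT7 against CT7 (1 up, 2 down; 48.6%), 3 of 8 in *ddm1* (2 up, 1 down; 50.1%) and 3 of 10 in wt (1 up, 2 down; 47.4%). These shares lie near or under those of all genes, so that the count is no result about the set, and the description rests on which genes moved and how far. Where groups are said not to overlap, here and below, this only describes the libraries. Of pairs of gene and heat comparison, 12 of 70 did not overlap at 7 d (11 of them called) and 10 of 60 at 28 d (0 called). The share over all genes was not counted, so that a lack of overlap is no result about these genes. *ATXR6* fell under the filter in *poliv* and *ddm1* tissue, and *FAS2* in *ddm1* tissue. The median log2 fold change of the genes that were tested was -0.67 in *poliv* HS7, 0.02 in *ddm1* HS7 and -0.87 in wt HS7, beside -0.31, -0.28 and -0.34 over all nuclear genes. By edgeR the medians over all genes were 0.05, 0.12 and 0.06, so the level of these medians depends on the scaling and tool. In seedling tissue they were -0.29 for *poliv*, 0.23 for *ddm1* and 0.09 for wt, beside -0.15, -0.18 and -0.17 over all genes. Markers of other cells moved with heat as well: the leaf photosynthetic sum averaged 4128 in wt HS7 and 34696 in wt CS7, and 313092 in wt HT7 and 1534760 in wt CT7, while the stem cell marker sum averaged 1690 in *poliv* HS7 and 438 in *poliv* CS7, 324 in *ddm1* HS7 and 63.2 in *ddm1* CS7, and 1201 in wt HS7 and 423 in wt CS7. Of 9 marker genes of leaf, epidermis and vasculature, 48 of 63 tests over the 7 heat comparisons were called lower and none higher. The share of organelle reads was 16.9% to 21.6% in wt HS7 and 26.8% to 35.8% in wt CS7, and 14.7% to 21.0% in wt HT7 and 5.08% to 9.64% in wt CT7, and between 17252 and 19143 nuclear genes were detected in wt HS7, against 19305 to 20424 in wt CS7. The part of these shifts in the results was not tested, and in bulk libraries fewer cells of a type and less RNA per cell cannot be told apart.

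**Figure D2:**
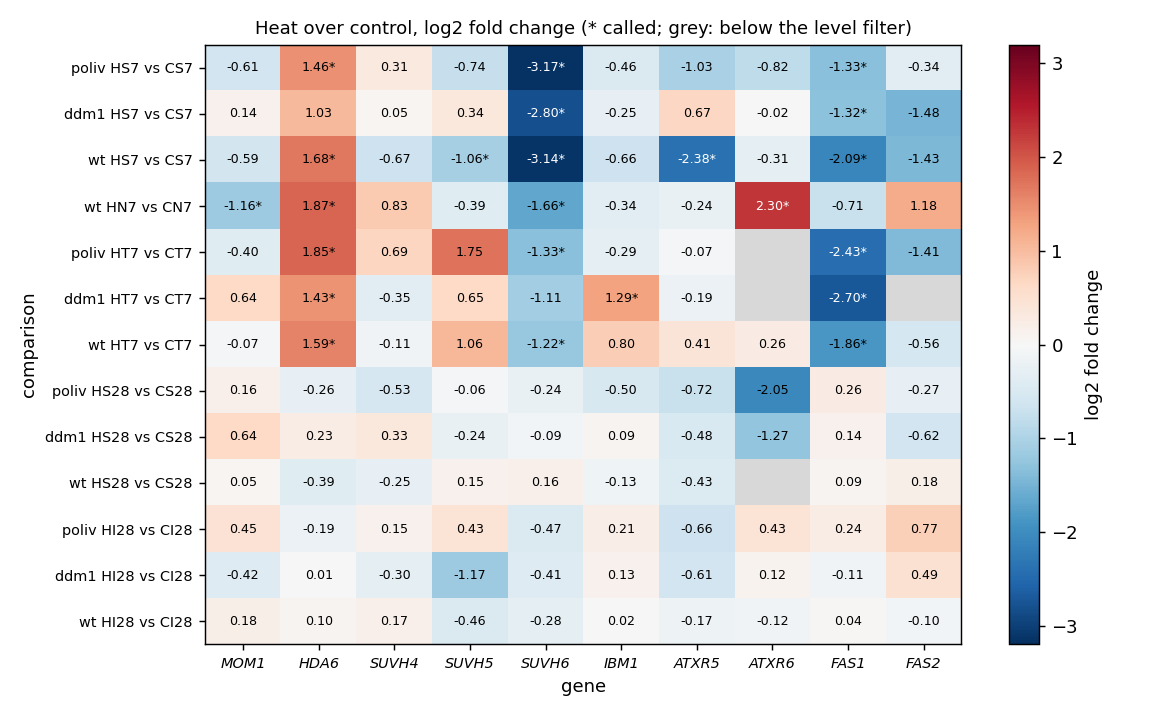
Log2 fold change of heat over control for each of the 10 genes (columns) in 13 comparisons (rows, sample type and genotype), with a star where the gene was called and grey where it was under the level filter. Of the 7 comparisons at 7 d, *HDA6* is called higher in 6 and *SUVH6* and *FAS1* are called lower in 6 each, and no gene is called in the 6 comparisons at 28 d.

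*HDA6*, the deacetylase, rose with heat in 6 of the 7 comparisons at 7 d. In seedling tissue it had 152, 168, 112 and 127 normalized counts in *poliv* HT7, against 48.2, 50.8 and 21.3 in *poliv* CT7. It had 149, 135, 133 and 118 in *ddm1* HT7, against 33.1, 48.4, 80.0 and 44.4 in *ddm1* CT7, and 131, 132, 151 and 154 in wt HT7, against 45.1, 51.0, 47.3 and 42.2 in wt CT7. In each genotype every heated library lay above every control library. The log2 fold changes were 1.85 ± 0.33 in *poliv* (SE, adjusted p = 0.000595), 1.43 ± 0.27 in *ddm1* (adjusted p = 0.000474) and 1.59 ± 0.20 in wt (adjusted p = 2.29e-05). In nuclei the lowest, median and highest values were 38.8, 56.8 and 81.7 in *poliv* HS7, against 6.08, 22.6 and 36.4 in *poliv* CS7, and the groups did not overlap. In nonstem nuclei they were 48.5, 68.5 and 99.2 in wt HN7, against 5.94, 25.6 and 31.6 in wt CN7, again with no overlap. In stem cell nuclei of wt they were 26.9, 66.1 and 84.4 in HS7, against 6.66, 15.9 and 67.6 in CS7, where 1 control library (replicate 1) stood far above the other 7 and 4 of 8 heated libraries exceeded all controls. The log2 fold changes in nuclei were 1.46 ± 0.46 in *poliv* HS7 (adjusted p = 0.0134), 1.68 ± 0.52 in wt HS7 (adjusted p = 0.00973) and 1.87 ± 0.43 in wt HN7 (adjusted p = 0.000731). In *ddm1*, HS7 libraries had 15.0, 59.6 and 116 against 10.9, 29.9 and 51.8 in CS7, a log2 fold change of 1.03 ± 0.46 that did not pass (adjusted p = 0.0705), although the count tests on recovered reads called it, with 1.27 by edgeR (adjusted p = 0.0346) and 1.23 by DESeq2 (adjusted p = 0.0220).

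Other histone deacetylases did not all follow *HDA6*. Over the 7 heat comparisons at 7 d, a list of 15 relatives gave 22 calls up and 7 down in 80 tests, a share of 36.3% that lies within the 33.4% to 50.1% of all genes called in these comparisons. The counts of the other lists are likewise to be read against these shares. Of the plant-specific HD2 type deacetylases, *HDT1*, *HDT2* and *HDT4* were called up in all 4 comparisons of nuclei, with 1.92, 1.85 and 1.97 in wt HS7. *HDT3* was called up in wt HS7 (1.18) and wt HN7 (1.12) but not in *poliv* HS7 (0.56) or *ddm1* HS7 (0.18). In wt HS7, with *HDA2* (1.86), 5 of 12 tested relatives were called up and none down. In seedling tissue *HDT1* turned the other way (-1.21 for *poliv*, -2.42 for *ddm1* and -1.37 for wt), and *HDA14* fell most in wt, at -3.18. *HDA2* was called up in 5 of the 7 comparisons, and *HDA19* in 1.

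*MOM1*, an unusual remodeler-like silencing protein, fell with heat in nonstem nuclei. The lowest, median and highest values were 66.6, 117 and 174 normalized counts in wt HN7, against 209, 261 and 283 in wt CN7, with no overlap (log2 fold change -1.16 ± 0.22, SE, adjusted p = 0.000106). The count tests put it just under the threshold of size, at -0.89 by edgeR and -0.92 by DESeq2. In stem cell nuclei the difference had the same sign but was under the threshold of size, with 131, 241 and 393 in wt HS7 against 295, 365 and 440 in wt CS7 (-0.59 ± 0.20, adjusted p = 0.0177), and -0.61 ± 0.22 in *poliv* (adjusted p = 0.0306). In *ddm1* nuclei it was 0.14 ± 0.18 (adjusted p = 0.563). In the heated wt nuclei *MOM1* was 1.05 ± 0.28 higher on the log2 scale in HS7 than in HN7 (adjusted p = 0.0236), and 6 of 8 HS7 libraries lay above all HN7 libraries, a call that was lost without the level filter (adjusted p = 0.0867). The heat effect itself did not differ between stem and nonstem nuclei by the test of the difference. In tissue *MOM1* was low, at 2.54 ± 0.53 per kb in wt CT7, and no heat comparison called it. Among its partners, the SUMO ligase *PIAL1* was called up in all 7 heat comparisons at 7 d, with log2 fold changes between 1.90 and 3.39, whereas *PIAL2* was called in 1, lower (-1.74 in *ddm1* HS7). *MORC6*, an ATPase of heterochromatin, was called up in 3 and *MORC1* in 2 of the 7. The list of 8 partners and MORC ATPases gave 15 calls up and 1 down in 55 tests (29.1%).

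*SUVH6* was the H3K9 methyltransferase of the set called lower with heat in most comparisons, 6 of the 7 at 7 d. In stem cell nuclei the lowest, median and highest values were 0, 5.6 and 21.2 normalized counts in *poliv* HS7, against 27.7, 63.2 and 126 in *poliv* CS7, and the groups did not overlap. They were 0, 3.08 and 58.6 in *ddm1* HS7, against 16.5, 46.1 and 91.1 in *ddm1* CS7, and 0.876, 6.36 and 44.1 in wt HS7, against 31.0, 78.2 and 110 in wt CS7. In *ddm1* 5 of 8 and in wt 7 of 8 heated libraries lay below every control library. The log2 fold changes were -3.17 ± 0.67 in *poliv* (SE, adjusted p = 0.000383), -2.80 ± 0.73 in *ddm1* (adjusted p = 0.00271) and -3.14 ± 0.66 in wt (adjusted p = 0.000305). In nonstem nuclei the values were 6.14, 18 and 51.4 in wt HN7, against 28.3, 58.0 and 96.0 in wt CN7, with 5 of 6 heated libraries below all controls (-1.66 ± 0.50, adjusted p = 0.00762). On recovered reads, edgeR did not call *SUVH6* in *ddm1* HS7 (adjusted p = 0.0739), while DESeq2 did. Neither count test called it in wt HN7 (edgeR adjusted p = 0.0862, DESeq2 adjusted p = 0.0615). The neighbour on the opposite strand, AT2G22730, averaged 12.8 ± 12.7 in *poliv* HS7 and 38.1 ± 17.3 in *poliv* CS7, 35.8 ± 22.6 in *ddm1* HS7 and 37.4 ± 23.2 in *ddm1* CS7, and 21.3 ± 18 in wt HS7 and 20.1 ± 9.35 in wt CS7 (SD, n = 8 each). In nonstem nuclei it averaged 23.5 ± 12.5 in wt HN7 and 35.5 ± 16.7 in wt CN7 (SD, n = 6 each). In *poliv* S7 nuclei and in wt nonstem nuclei its mean was lower with heat, as was *SUVH6*, although in nonstem nuclei the spreads overlapped. Its part in the *SUVH6* counts was not tested. The overlapping long noncoding RNA has no counts in these data, so that its part cannot be seen.

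In seedling tissue *SUVH6* was lower as well, at levels of few reads. It had 7.56, 4.45, 7.25 and 12.2 normalized counts in *poliv* HT7, against 29.6, 11.4 and 24.1 in *poliv* CT7, and 6.89, 11.3, 10.2 and 4.74 in wt HT7, against 34.2, 24.8, 10.9 and 15.8 in wt CT7. The heated and control libraries overlapped in both genotypes. The log2 fold changes were -1.33 ± 0.48 in *poliv* (SE, adjusted p = 0.0351) and -1.22 ± 0.45 in wt (adjusted p = 0.0351). In *ddm1* the values were 9.39, 10.8, 3.33 and 9.51 in HT7, against 23.5, 9.69, 38.8 and 10.8 in CT7, a difference that did not pass (-1.11 ± 0.52, adjusted p = 0.0827) unless CT7 replicate 2 was left out (-1.38, adjusted p = 0.0489). The tissue calls depended on single libraries. In wt the call was lost without CT7 replicate 1 (-0.96, adjusted p = 0.108), without CT7 replicate 2 (adjusted p = 0.0873), HT7 replicate 1 (0.0765) or HT7 replicate 4 (0.0940), and also by edgeR (adjusted p = 0.0596), with recomputed factors (0.0685) and, for its size, with a pseudocount of 5 (-0.94). In *poliv* it was lost without CT7 replicate 1 or 4 or HT7 replicate 1, 2 or 3 (adjusted p between 0.0573 and 0.131), by edgeR (0.0556), with recomputed factors (0.0580) and with the replicate number as a block (-1.12, adjusted p = 0.0926).

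*SUVH4* and *SUVH5* did not share this pattern. *SUVH4*, also called KRYPTONITE, was called in none of the 7 heat comparisons at 7 d. In wt HN7 it had 68.1, 105 and 174, against 30.3, 71.0 and 93.8 in wt CN7 (0.83 ± 0.30, adjusted p = 0.0245), and in wt HS7 13.8, 130 and 162, against 117, 149 and 192 in wt CS7 (-0.67 ± 0.35, adjusted p = 0.126). *SUVH5* had 14.9, 46.1 and 163 in wt HS7, against 77.6, 103 and 175 in wt CS7, a call (-1.06 ± 0.38, adjusted p = 0.0253) that was lost by edgeR (-0.62, adjusted p = 0.227), by DESeq2 (-0.69, adjusted p = 0.166), without the level filter and, by a narrow margin of size, with a pseudocount of 5 (-0.98) or recomputed factors (-1.0). It was not called with heat in *poliv* or *ddm1* nuclei, nor in tissue, where its log2 fold change was 1.75 ± 0.77 in *poliv* (adjusted p = 0.0726) and 1.06 ± 0.54 in wt (adjusted p = 0.114). *SUVH5* was called there without *poliv* CT7 replicate 3 (2.31, adjusted p = 0.0407), without *poliv* HT7 replicate 3 (2.11, adjusted p = 0.0478) or without wt CT7 replicate 3 (1.49, adjusted p = 0.0255). Of the other SUVH and SUVR genes, 6 tests were called up and 11 down of 64 over the 7 comparisons (26.6%). *SUVH3* was called down in 4, all of them in nuclei (-1.24 in wt HS7, -1.36 in wt HN7), *SUVR5* in 4 (-1.41 in wt HS7, -1.69 in wt HT7), and *SUVR4* (3.06 in wt HT7) and *SUVH1* (1.24 in wt HT7) were called up in the 3 tissue comparisons.

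*IBM1*, the demethylase that counters the SUVH enzymes in genes, was called with heat once. In *ddm1* tissue it had 15.4, 37.4, 32.2 and 38.0 normalized counts in HT7, against 17.9, 11.3, 18 and 4.04 in CT7, so that 3 of 4 heated libraries lay above all controls (1.29 ± 0.48, SE, adjusted p = 0.0320). The call was lost without any 1 of 5 of the 8 libraries (*ddm1* CT7 replicates 2 and 4, *ddm1* HT7 replicates 2, 3 and 4), with adjusted p between 0.0571 and 0.0910. In wt the values were 30.3, 23.7, 16.3 and 23.0 in HT7, against 10.8, 16.5, 16.4 and 8.80 in CT7 (0.80 ± 0.35, adjusted p = 0.0730), and *IBM1* was called there with recomputed factors (1.01, adjusted p = 0.0269), by edgeR (1.09, adjusted p = 0.0257) and by DESeq2 (1.04, adjusted p = 0.0348). In wt stem cell nuclei *IBM1* had 133, 176 and 250 in HS7, against 214, 272 and 466 in CS7, a smaller difference of the opposite sign that stayed under the threshold of size (-0.66 ± 0.20, adjusted p = 0.00872). The related demethylase *JMJ29* also differed in sign between sample types, at 2.34 in wt HT7 and -1.14 in wt HN7, both called. *JMJ27* fell in wt HN7 (-1.24), and *EDM2*, which helps make the long *IBM1* transcript, was called up once (1.21 in *ddm1* HS7). The list of 7 such genes gave 4 calls up and 4 down in 46 tests (17.4%).

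*ATXR5* and *ATXR6*, the H3K27 monomethyltransferases, were sparse in nuclei and were called once each. *ATXR5* had a lowest, median and highest value of 0, 7.21 and 37.7 normalized counts in wt HS7, against 11.3, 26.9 and 57.7 in wt CS7, with 3 heated libraries at 0 and 5 of 8 below every control (log2 fold change -2.38 ± 0.79, SE, adjusted p = 0.0161). The count tests on recovered reads did not call it (edgeR -1.34, adjusted p = 0.277; DESeq2 -1.41, adjusted p = 0.194). *ATXR5* had 7.51, 27.9 and 55.8 in *ddm1* HS7, against 0, 19.3 and 59.7 in *ddm1* CS7 (0.67 ± 0.71, adjusted p = 0.473). *ATXR6* had 4.45, 18.0 and 29.5 in wt HN7, against 0, 2.32 and 8.57 in wt CN7, and 4 of 6 heated libraries lay above all controls (2.30 ± 0.76, adjusted p = 0.0147, and not called by edgeR with adjusted p = 0.0800). In wt HS7 it had 0, 3.10 and 52.8, against 0, 8.51 and 23.6 in wt CS7 (-0.31 ± 0.91, adjusted p = 0.811). At such levels a few reads decide a value, and small changes in *ATXR6* were not detectable at this depth.

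*FAS1*, the largest subunit of CAF-1, fell in S7 nuclei of the 3 genotypes, although in *ddm1* the heated and control nuclei also differed in stem cell markers (mean sum 324 in HS7 and 63.2 in CS7). The lowest, median and highest values were 7.64, 49.8 and 147 normalized counts in *poliv* HS7, against 75.5, 123 and 203 in *poliv* CS7, with 6 of 8 heated libraries below all controls. They were 25, 50.3 and 70.3 in *ddm1* HS7, against 71.1, 122 and 172 in *ddm1* CS7, with no overlap, and 1.43, 64.4 and 151 in wt HS7, against 140, 200 and 266 in wt CS7, with 7 of 8 below. The log2 fold changes were -1.33 ± 0.41 in *poliv* (SE, adjusted p = 0.0114), -1.32 ± 0.30 in *ddm1* (adjusted p = 0.000776) and -2.09 ± 0.59 in wt (adjusted p = 0.00846). In *poliv*, edgeR gave -0.99 and did not call it (adjusted p = 0.0575). The nonstem nuclei had 20.3, 79.0 and 151 in wt HN7, against 53.0, 113 and 160 in wt CN7, and the groups overlapped (-0.71 ± 0.42, adjusted p = 0.174). In seedling tissue *FAS1* was near the limit of detection: 2.75, 0.742, 1.45 and 0 in *poliv* HT7, against 14.0, 11.4 and 5.67 in *poliv* CT7. It had 4.27, 2.16, 0 and 0 in *ddm1* HT7, against 19.3, 8.07, 14.6 and 9.42 in *ddm1* CT7, and 3.45, 5.15, 0.681 and 2.03 in wt HT7, against 19.8, 12.4, 12.7 and 5.28 in wt CT7. Every heated library lay below every control library of its genotype. The log2 fold changes were -2.43 ± 0.68 in *poliv* (adjusted p = 0.0102), -2.70 ± 0.68 in *ddm1* (adjusted p = 0.00372) and -1.86 ± 0.59 in wt (adjusted p = 0.0164). Without wt CT7 replicate 1 the call in wt was lost (-1.61, adjusted p = 0.0522), and in *poliv* the gene fell under the level filter without CT7 replicate 1 or 3 or with recomputed factors.

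**Figure D3:**
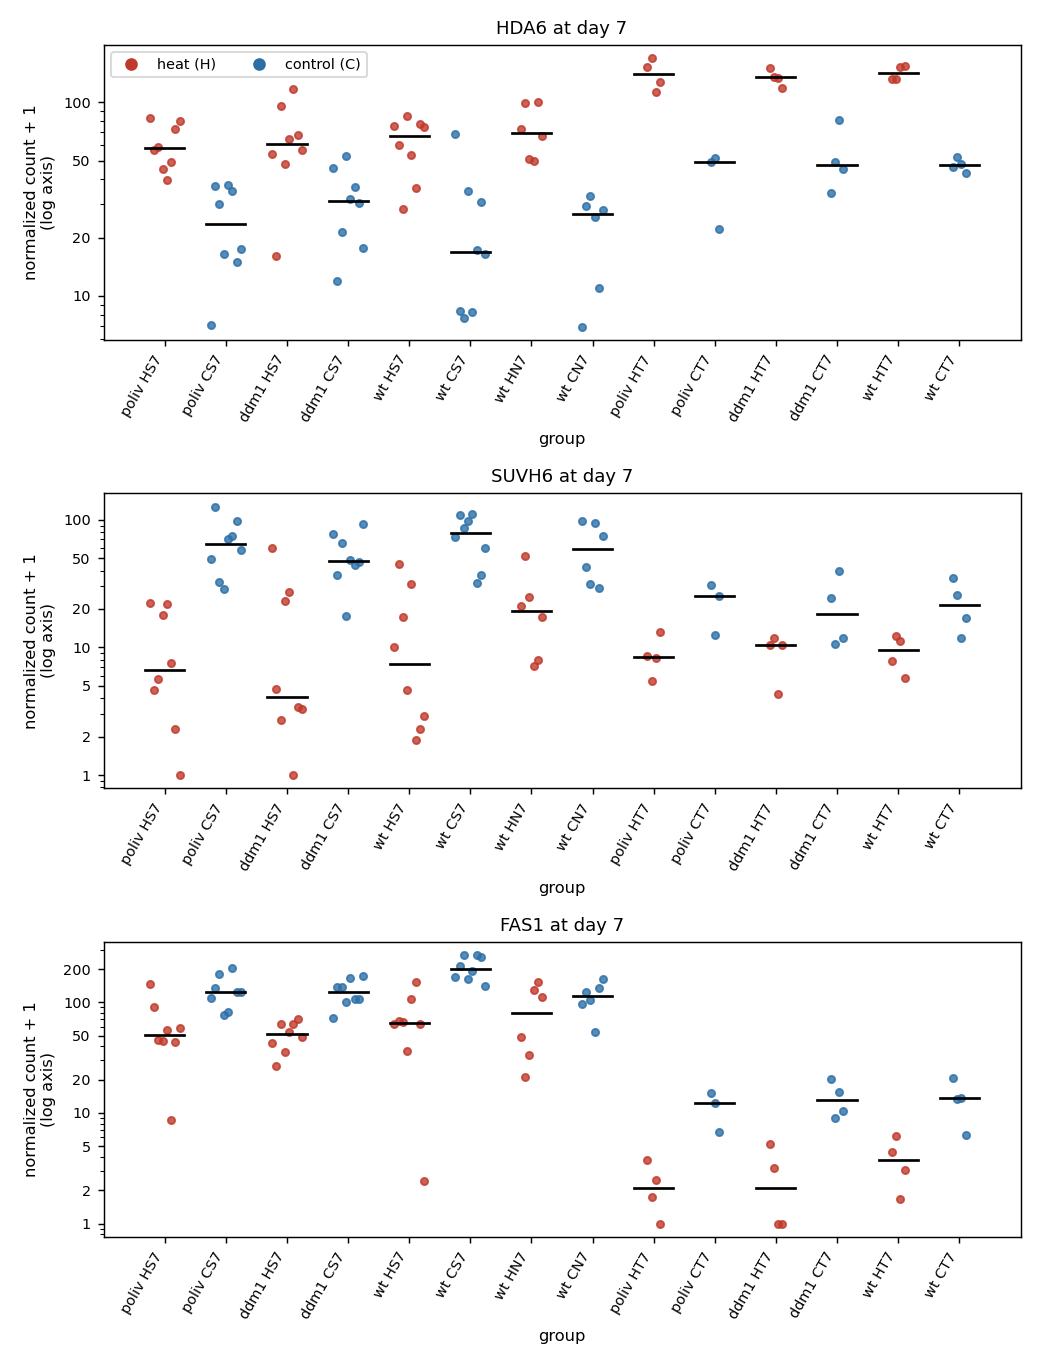
Normalized counts of *HDA6*, *SUVH6* and *FAS1* in each library at 7 d (points, log axis, value plus 1), with heated groups left of their controls and a line for the median of each group. The median of *HDA6* is higher in each heated group than in its control, with no overlap in seedling tissue, and the medians of *SUVH6* and *FAS1* are lower. Not called were *HDA6* in *ddm1* HS7, *SUVH6* in *ddm1* HT7 and *FAS1* in wt HN7.

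*FAS2*, the second CAF-1 subunit, was not called in any heat comparison, at lower levels and with wider spread. It had 0, 17.7 and 49.4 normalized counts in wt HS7, against 13.2, 25 and 69.8 in wt CS7 (-1.43 ± 0.73, SE, adjusted p = 0.118). In *poliv* tissue it had 3.44, 2.97, 0.725 and 3.76 in HT7, against 6.23, 12.4 and 7.09 in CT7, groups that did not overlap but did not pass (-1.41 ± 0.60, adjusted p = 0.0663). *MSI1*, the small CAF-1 subunit that also serves in other complexes, went the other way: it was called up in 6 of the 7 heat comparisons at 7 d, by 1.6 in wt HS7, 1.56 in wt HN7 and 1.47 in wt HT7. The list of *MSI1* and 4 other histone chaperones and replication-linked factors gave 7 calls up and none down in 35 tests (20%). The 16 genes of S phase on a list of replication genes split. The genes for the replicative histone H3.1 fell, *HTR2*, *HTR3* and *HTR9* in all 7 comparisons, with *HTR9* at -3.07 in wt HS7 and -6.49 in wt HT7, while the helicase subunit *MCM5* was called up in 6 (2.65 in wt HS7) and the clamp *PCNA1* in 4 (2.55 in wt HS7). Over the 7 comparisons this list had 19 calls up and 44 down in 109 tests (57.8%).

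No difference between genotypes or between stem and nonstem nuclei in the heat effect passed for any of the 10 genes. The interaction of genotype and heat in S7 nuclei called 0 of 10 genes for *poliv* minus wt (0.136% of all genes) and 0 of 10 for *ddm1* minus wt (5.13%). In T7 tissue it called none for *poliv* minus wt (0.0354%) and none for *ddm1* minus wt (0.581%), and for S7 minus N7 in wt 0 of 10 (0.261%). At an unadjusted limma p under 0.05 there were 1, 3, 1, 0 and 4 genes in these 5 contrasts, in the order given, and edgeR and DESeq2 called none. The lowest adjusted p-values were those of *ATXR5*, with a heat effect 3.05 ± 1.07 higher in *ddm1* than in wt S7 nuclei (adjusted p = 0.0732), and of *MOM1*, with 0.73 ± 0.26 (adjusted p = 0.0735), both of which rest on *ddm1* CS7. The heat effect on *SUVH4* was -1.50 ± 0.51 in S7 minus N7 (adjusted p = 0.260) and that on *FAS2* was -2.61 ± 1.02 (adjusted p = 0.385). For *HDA6* the difference between S7 and N7 was -0.19 ± 0.69 (adjusted p = 0.969) and for *FAS1* -1.37 ± 0.85 (adjusted p = 0.684), with SEs too wide to detect differences of this size.

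At 28 d, after recovery at 21 °C, none of these genes was called between heated and control plants. In stem cell nuclei 0 of 10 genes were called in *poliv* HS28 against CS28 (0.0651% of all genes), 0 of 10 in *ddm1* (0.244%) and 0 of 9 in wt (0%), and at an unadjusted limma p under 0.05 there was 1 gene in *poliv*, 1 in *ddm1* and none in wt. In inflorescence apices 0 of 10 genes were called in *poliv* HI28 against CI28 (0.966%), 0 of 10 in *ddm1* (0.774%) and 0 of 10 in wt (0%), with 2, 1 and 0 genes at an unadjusted p under 0.05. edgeR and DESeq2 called none in these 6 comparisons. In wt apices the replicate numbers paired the libraries by their correlation, and a fit with the number as a block called 201 of all genes but none of these 10. *HDA6*, *SUVH6* and *FAS1*, which changed at 7 d, had log2 fold changes at 28 d between -0.47 and 0.26 over the 6 comparisons. *ddm1* HS28 libraries had 296, 387 and 311 normalized counts of *MOM1*, against 212, 246, 183 and 204 in *ddm1* CS28 (0.64 ± 0.19, SE, adjusted p = 0.173). *IBM1* had 161, 166, 146 and 120 in *poliv* HS28, against 176, 171, 226 and 276 in *poliv* CS28 (-0.50 ± 0.23, adjusted p = 0.944). In both of these the groups did not overlap, although neither gene was called. Other pairs of gene and comparison did not overlap either, among them *ATXR6* under the level filter in wt HS28 and CS28. How often this occurs over all genes was not counted, so that it is no result about these genes.

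Without heat, *SUVH5* in stem cell nuclei was the gene called between the silencing mutants and wt. In CS7 nuclei 1 of 10 genes was called in *poliv* against wt (0.606% of all genes) and 1 of 10 in *ddm1* against wt (9.99%), *SUVH5* in both. The lowest, median and highest values of *SUVH5* were 3.51, 34.9 and 63.1 normalized counts in *poliv* CS7 and 6.07, 46.6 and 88.5 in *ddm1* CS7, against 77.6, 103 and 175 in wt CS7. All 8 *poliv* and 7 of 8 *ddm1* libraries lay below every wt library. The log2 fold change was -2.02 ± 0.39 in *poliv* (SE, adjusted p = 0.00124) and -1.52 ± 0.39 in *ddm1* (adjusted p = 0.00381). The stem cell marker sum of *poliv* CS7 (mean 438) was close to that of wt CS7 (mean 423), whereas *ddm1* CS7 libraries had 63.2. Set against wt CN7, an alternative added after the marker levels were seen, *ddm1* CS7 libraries had a log2 fold change of -0.03 for *SUVH5* (adjusted p = 0.980) and none of the 10 genes was called. The 2 comparisons that called *SUVH5* here, that of HS7 with CS7 in wt, and that of CS7 with CN7 share the same 8 wt CS7 libraries. *SUVH5* averaged 110 ± 32.9 there, and between 29.6 ± 10.8 in wt HN7 and 64.0 ± 48.7 in wt HS7 in the other 7 groups of nuclei at 7 d (SD, n = 6 or 8). At 28 d it averaged 75.7 ± 26.6 in *poliv* CS28 and 74.1 ± 20.5 in wt CS28 nuclei (SD, n = 4 each), and was not called in either mutant.

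Other genes were lower in *ddm1* CS7 by less than the threshold of size: *SUVH4* at 41.5, 72.5 and 123 in *ddm1* CS7, against 117, 149 and 192 in wt CS7 (-0.98 ± 0.23, adjusted p = 0.00138), *FAS1* (-0.74 ± 0.20, adjusted p = 0.00453), *IBM1* (-0.66 ± 0.19, adjusted p = 0.00898) and *MOM1* (-0.48 ± 0.13, adjusted p = 0.00725). All of these genes were also higher in stem than in nonstem nuclei of wt, a comparison that uses the same wt CS7 libraries, and the low stem cell marker sum of *ddm1* CS7 moved with them. Its part in these values was not tested. Among relatives, *SUVR2* (-1.65), *SUVR1* (-1.30), *SUVR5* (-1.02), *JMJ26* (-1.38), *MORC2* (-1.49) and the chaperone *ASF1B* (-2.41) were called lower in *ddm1* CS7, with 6 of 16 S phase genes lower and none higher.

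In CS28 nuclei the stem cell marker sums were nearer to each other, between 695 and 726 in *ddm1* and between 798 and 992 in wt, with photosynthetic sums of 37945 in *ddm1* and 19752 in wt on average. None of 10 genes was called in *poliv* against wt (0.375% of all genes) and 0 of 10 in *ddm1* against wt (7.86%), with 0 and 4 genes at an unadjusted limma p under 0.05 and none by edgeR or DESeq2. *MOM1* came close in *ddm1*, with 212, 246, 183 and 204 normalized counts in *ddm1* CS28, against 366, 337, 432 and 498 in wt CS28 (-0.94 ± 0.14, SE, adjusted p = 0.000213). It was below the threshold of size alone, and was called without *ddm1* CS28 replicate 2 (-1.01) or without wt CS28 replicate 2 (-1.03). *IBM1* had 120, 129, 137 and 123 in *ddm1* CS28, against 229, 225, 197 and 175 in wt CS28 (-0.69 ± 0.13, adjusted p = 0.00152), and *SUVH6* 76.0, 56.8, 68.1 and 79.3, against 127, 109, 116 and 105 (-0.71 ± 0.16, adjusted p = 0.00517). In all 3 genes the *ddm1* libraries lay below every wt library. *IBM2*, which helps make the long *IBM1* transcript, was called lower in *ddm1* CS28 (-1.36), as was the *MOM1* partner *AIPP2* (-1.11).

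In tissue none of the genes was called between mutant and wt controls. In seedlings 0 of 9 genes were called in *poliv* CT7 against wt CT7 (0.0782% of all genes) and 0 of 9 in *ddm1* (1.38%), and in apices 0 of 10 in *poliv* CI28 against wt CI28 (0.121%) and 0 of 10 in *ddm1* (4.04%). At an unadjusted limma p under 0.05 there was 1 gene in the first of these 4 comparisons and none in the other 3, and edgeR and DESeq2 called none. The gene with the lowest p was *IBM1*, with 26.5, 22.8 and 31.2 normalized counts in *poliv* CT7, against 10.8, 16.5, 16.4 and 8.80 in wt CT7 (1.01 ± 0.41, SE, adjusted p = 0.706). Both mutants were compared with the same wt libraries.

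Between stem and nonstem nuclei of wt at 21 °C, *SUVH4* and *SUVH5* differed. In CS7 against CN7, 2 of 10 genes were called, both higher (2.54% of all genes). *SUVH4* had 117, 149 and 192 normalized counts in wt CS7, against 30.3, 71.0 and 93.8 in wt CN7 (log2 fold change 1.31 ± 0.24, SE, adjusted p = 0.000264). *SUVH5* had 77.6, 103 and 175 in wt CS7, against 24.0, 35.5 and 61.5 in wt CN7 (1.49 ± 0.28, adjusted p = 0.000352). Neither gene overlapped between the groups, so that every stem cell library was above every nonstem library. *FAS1* (0.93 ± 0.21, adjusted p = 0.00384), *IBM1* (0.79 ± 0.18, adjusted p = 0.00256) and *MOM1* (0.49 ± 0.14, adjusted p = 0.0195) were higher by less than the threshold of size. *SUVH6* (0.33 ± 0.33, adjusted p = 0.636) and *HDA6* (-0.10 ± 0.55, adjusted p = 0.950) did not pass. Relatives called higher in stem cell nuclei were *SUVR2* (1.58), *SUVR1* (1.03), *JMJ26* (1.33) and *HDA18* (2.09). The chaperones *ASF1B* (2.72) and *HIRA* (1.33) and the replication-linked factor *TSK* (1.93) were also called higher. So were 3 of the S phase genes, *MCM2* (1.61), *ICU2* (1.40) and *MCM6* (1.28). After heat, HS7 against HN7, 1 of 10 genes was called (1.39% of all genes), *MOM1* as given above. *SUVH4* then had a log2 fold change of -0.19 ± 0.40 (adjusted p = 0.874) and *SUVH5* of 0.81 ± 0.53 (adjusted p = 0.504).

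**Figure D4:**
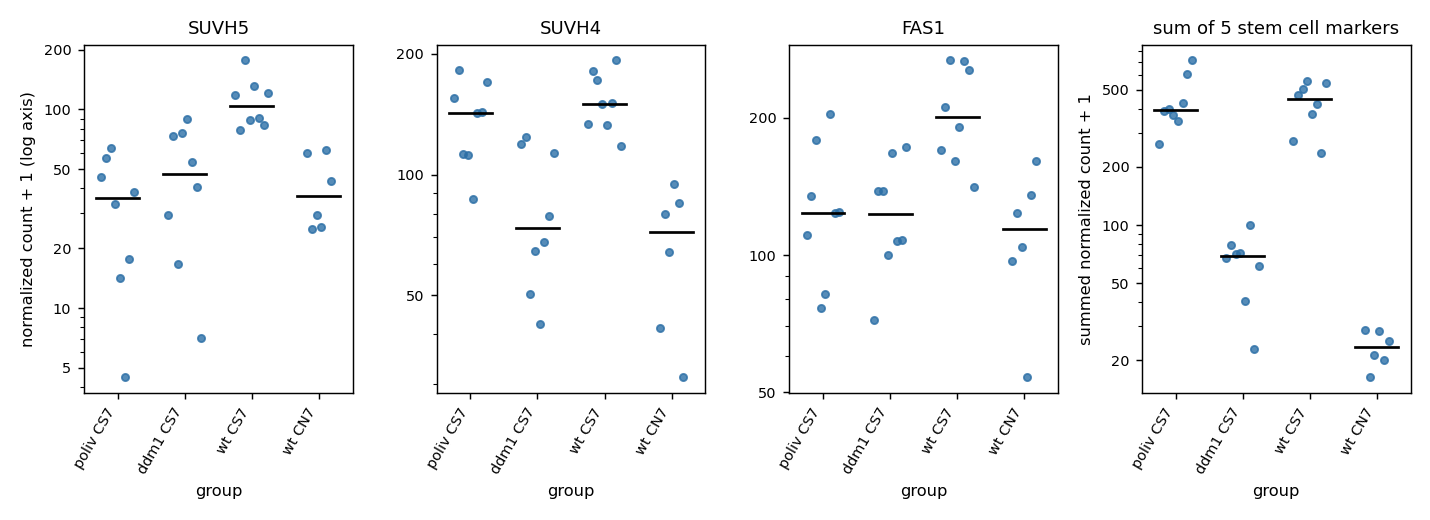
Normalized counts of *SUVH5*, *SUVH4* and *FAS1*, and the summed level of the 5 stem cell markers, in each library of control nuclei (points, log axis, value plus 1), with a line for the median of each group. *SUVH5* is lower in *poliv* and *ddm1* than in wt CS7 (medians 34.9, 46.6 and 103), while the mean marker sum is 63.2 in *ddm1* CS7 and 22.4 in wt CN7, against 438 in *poliv* CS7 and 423 in wt CS7.

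Likeness across the 26 groups was described by Pearson's r of mean log2 levels over 19461 nuclear genes, with no test, since the split between nuclei and tissue runs through all of them. The most alike genes were AT2G46560, AT5G46510 and AT3G06670 for *MOM1* (r = 0.99 each), AT1G50410, AT3G14172 and AT1G60200 for *IBM1* (0.99 each), *ATSMC2*, *UNE6* and *MMH-1* for *SUVH4* (0.97 each), and *NBR1*, AT4G31180 and *RPT3* for *HDA6* (0.97 each). For *SUVH5* they were AT5G17930 (0.96), *ARP5* and *FDM5* (0.95 each), for *SUVH6* *CIP7*, AT1G56520 (0.97 each) and AT5G42880 (0.96), and for *FAS1* AT5G13980 (0.98), AT1G54730 and AT5G60930 (0.97 each). Likeness was weaker for *FAS2*, with *FtsHi1* (0.90), AT2G24700 (0.88) and *TOPII* (0.87), for *ATXR5*, with AT1G80290, AT1G74940 and *RR2* (0.80 each), and for *ATXR6*, with AT5G20970, AT1G62120 (0.69 each) and AT2G01060 (0.66). *HDA6* and *SUVH6* ran against each other. Their r was -0.86 over the 14 groups of nuclei (S7, N7 and S28) and -0.86 over the 12 groups of tissue (T7 and I28). *SUVH6* and *FAS1* ran together, with 0.79 in nuclei and 0.80 in tissue, and *HDA6* and *FAS1* had -0.88 in nuclei and -0.57 in tissue. These genes were picked for their heat calls in the same groups, so that the signs were largely given beforehand. Both sets of groups hold heated and control plants at 7 d and at 28 d.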

How the data were processed

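mRNA libraries (Smart-seq; the paper gives version 3 for S7 and version 2 for T7, I28 and S28, the labels version 2) were processed by the authors with bedtools 2.27 and a nextflow RNA-seq pipeline against TAIR10 genes without TE genes plus TEs, and normalized with DESeq2. Aligner, counter and strand setting are not given in the sources used here. The deposited unit is a signal: counts divided by a size factor per library. Whole reads were recovered in 125 of 128 libraries (tolerance 0.1), and the other 3 stayed out of count tests. The authors' mean and SD columns were not used.

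log2(value + 1) was fitted with limma 3.58.1 (R 4.3.3; eBayes with trend and robust), leaving out features whose mean over the compared libraries was under 5, with Benjamini-Hochberg adjustment over all features, genes and TEs. This setup was tested on simulated data. All 10 genes are named in every comparison, and of each related list at most the 4 called genes with the largest change per comparison. Lists and members were chosen with earlier results of these data known. Alternatives were a pseudocount of 5, no level filter, factors recomputed over nuclear genes, library weights, a replicate block, edgeR 4.0.16 and DESeq2 1.42.0 on recovered reads, leaving out each library of T7, S28 and I28, and, added after seeing the data, wt CN7 for wt CS7. Replicate numbers paired libraries in wt HI28 and CI28 alone (3 pairs, r between 0.126 and 0.174), by their correlation only. Coordinates and promoters are from TAIR10.1, in which 28929 genes of the table matched.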

Additional observations from a re-analysis of the deposited data

Results flagged for a closer look

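In groups of 4 to 10 libraries, 1 library stood far from the others in 7 of 220 sets of gene and group (3.18%), and chance gives about 1 in 20. *SUVH5* reached 188 normalized counts in wt HS28 replicate 3. *SUVH6* reached 58.6 in *ddm1* HS7 replicate 1, the highest value in that heated group. *ATXR6* reached 65.6 in *ddm1* HS7 replicate 5 and 52.8 in wt HS7 replicate 3. *HDA6* reached 67.6 in wt CS7 replicate 1, which is the control library that made the wt groups of stem cell nuclei overlap. *FAS2* reached 59.8 in *ddm1* CS7 replicate 7 and 136 in *poliv* HS7 replicate 8. All 7 were the highest of their group, and no interaction of genotype or cell type with heat passed for these genes.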

How the results depend on the processing

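In the 11 comparisons with any call, the count of called genes stayed within 1.5 times the main count in 92 of 101 values, and in the other 17, where the main count was 0, it stayed at 0 in 238 of 240. Of 344 values for single genes 296 kept their side of the threshold, 37 lost it, 11 gained it and none changed sign. edgeR called 1 and DESeq2 2 genes in wt HN7 (4 by limma), and both called 3 in wt HS7 (5 by limma). Recomputed factors left 1 of 3 calls in *poliv* HT7, and moved the median log2 fold change of all genes by between -0.06 and 0.23. edgeR moved it by up to 0.40 and DESeq2 by up to 0.34, so that all-gene medians in S7 turned from below 0 to 0.05 (*poliv*), 0.12 (*ddm1*) and 0.06 (wt) by edgeR, and the calls over all genes in wt HS7 were 2653 up and 2356 down, against 2198 and 4227 by limma. With wt CN7 in place of wt CS7, *ddm1* CS7 had 0 calls in place of 1, and without the level filter wt HS7 against HN7 had 0 in place of 1 (*MOM1*, adjusted p = 0.0867). Without 1 library the count ranged from 1 to 4 in wt HT7 (1 without CT7 replicate 1), from 1 to 3 in *poliv* HT7 (1 without CT7 replicate 1) and from 0 to 1 in *ddm1* against wt CS28. *FAS1* has no value in *poliv* HT7 under 3 of these settings, since its mean fell under 5. The causes were not tested. With the replicate block *SUVH6* was lost in *poliv* HT7 (-1.12, adjusted p = 0.0926), and no other call of these genes changed. Sparse genes (*ATXR6*, *FAS2*, *FAS1* in tissue) rest on few reads, and at these depths small changes in them were not detectable.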
